A study of Mus musculus with 3 samples.

Results

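Cluster 5 of the CD4+ T cells was 1 of 3 clusters of dividing cells among the 13 clusters into which the study divided splenic CD4+ T cells 7 days after bone marrow transplantation (BMT), and it is called there the second cycling effector cluster. Its members were taken from the deposited table of cells as all cells of cluster 5 that did not carry the TEa mark. The rule gave 886 cells of the 10371 CD4+ T cells in the table, and 36 TEa cells of the same cluster were left out. The 9 pools held 64, 91 and 107 member cells in the saline group, 45, 60 and 81 at the lower dose and 144, 143 and 151 at the higher dose of cyclosporine A (CSA).

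The study asked how CSA acts on donor T cells early after transplantation. B6D2F1 recipient mice of all groups received bone marrow and T cells of B6 donors together with TEa cells, which are CD4+ T cells with a single transgenic T cell receptor (TCR) for a host antigen. Recipients were treated every day from day 0 to day 6 with saline, with CSA at 5 mg/kg or with CSA at 50 mg/kg. On day 7 the spleens of 2 mice were joined into a pool, CD4+ and CD8+ donor T cells were sorted and combined, pools were marked with hashtag antibodies, and each group of 3 pools (6 mice) was run as a single droplet capture for 5' gene expression and TCR libraries. The replicate was therefore the pool, and the effect of a treatment and that of its capture cannot be told apart.

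Cyclosporine A binds cyclophilin and blocks calcineurin, the phosphatase that sends NFAT into the nucleus after TCR signalling. A T cell that has been activated copies its DNA in S phase, a step run by MCM helicases, PCNA and nucleotide-making enzymes, and then passes through G2 into mitosis, where B-type cyclins with CDK1, the kinetochore on CENP-A chromatin and the anaphase-promoting complex with its activator CDC20 order the separation of chromosomes. Many genes of the G2 and M phases are controlled through CCAAT boxes and the cell cycle genes homology region (CHR) in their promoters. Ki-67, the product of Mki67, coats mitotic chromosomes and is used as a mark of any cycling cell.

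Depth and quality differed between groups. Cluster 5 held 259472 to 1346543 UMIs (unique molecules) per pool, and the median cell had 3776.5 UMIs in the saline group, 6412.5 at 5 mg/kg and 7919.5 at 50 mg/kg, against 3044.0, 4294.0 and 5617.5 in the other CD4+ T cells. Mitochondrial UMIs had a median of 1.30 to 1.53% per pool. All 10371 CD4+ cells of the table carried Cd4 UMIs and 0 carried Cd8a UMIs, so these genes, on which the cells appear to have been selected, do not test the label. A second hashtag reached at least 0.5 of the strongest in 44 of the 886 cells, the strongest hashtag was that of another pool in 48, and 6 cells had a barcode that was also found in another capture. No doublet caller was run. B cell markers took 0.0234 ± 0.00722% of UMIs in the saline pools (mean ± SD, n = 3) and 0.0274 ± 0.00488% at 50 mg/kg, and myeloid markers 0.0349 ± 0.00850% and 0.0326 ± 0.000783%. Cluster 6 had 7 to 14 cells per pool at 50 mg/kg. The pool with 7 was left out of comparisons of expression with it but not of the clonotype shares.

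Dividing T cells were what the markers showed. Over the 9 pools Mki67 stood at 801 ± 521 CPM (mean ± SD; UMIs of a gene scaled to a common total of all UMIs in the sum) in cluster 5, the second highest of the 13 clusters after 3318 ± 727 in cluster 6 and ahead of 595 ± 151 in cluster 3. The order with cluster 3 depended on dose. Cluster 5 was at 1458 ± 197 CPM against 786 ± 84.3 in cluster 3 in the saline pools, at 617 ± 112 against 476 ± 11.2 at 5 mg/kg, and at 328 ± 38.5 against 524 ± 20.6 at 50 mg/kg, where cluster 3 was the higher. The TCR complex genes Cd3e, Cd3d and Cd3g were at 1009 ± 72.3, 1117 ± 139 and 1058 ± 111 CPM. Mki67 was not the gene that set the cluster apart from the other dividing cells. Cenpa, the centromeric histone that carries the kinetochore, was at 817 ± 117 CPM in cluster 5 and at 319.7 ± 36.8 and 331 ± 105 CPM in clusters 3 and 6. Ccnb2, a B-type cyclin of mitotic entry, was at 516 ± 83.2, 228 ± 20.8 and 219 ± 137 CPM in the same order. Cdc20, the mitotic activator of the anaphase-promoting complex, was at 281 ± 43.7, 119.8 ± 19.6 and 171 ± 85.6 CPM, and these 3 genes had their highest mean of all 13 clusters in cluster 5. The kinetochore list, which holds Cenpa, had negative median log2 ratios to clusters 3 and 6, as given below.

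Cluster 5 held less S phase RNA than the other dividing clusters and ranked 4 of 13 for it. The S phase list (39 genes with a UMI in the cluster) took 0.211 ± 0.0386% of UMIs in cluster 5, 0.777 ± 0.0440% in cluster 3 and 0.744 ± 0.129% in cluster 6. It took 0.241 ± 0.0240% in cluster 7 and means of 0.111 to 0.168% in the remaining 9 clusters. The list of anaphase-promoting complex activators and substrates took 0.423 ± 0.0505%, 0.354 ± 0.0170% and 0.355 ± 0.0888%. Here cluster 5 ranked first by its mean, and counts by gene against clusters 3 and 6, which were mixed, are given below. Mitotic kinases, spindle and cytokinesis genes took 0.639 ± 0.192% in cluster 5 against 0.609 ± 0.0457% in cluster 3 and 1.37 ± 0.1003% in cluster 6. In the deposited clustering, which was made from these same counts, such differences describe the cluster and are no test.

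**Figure D1:**
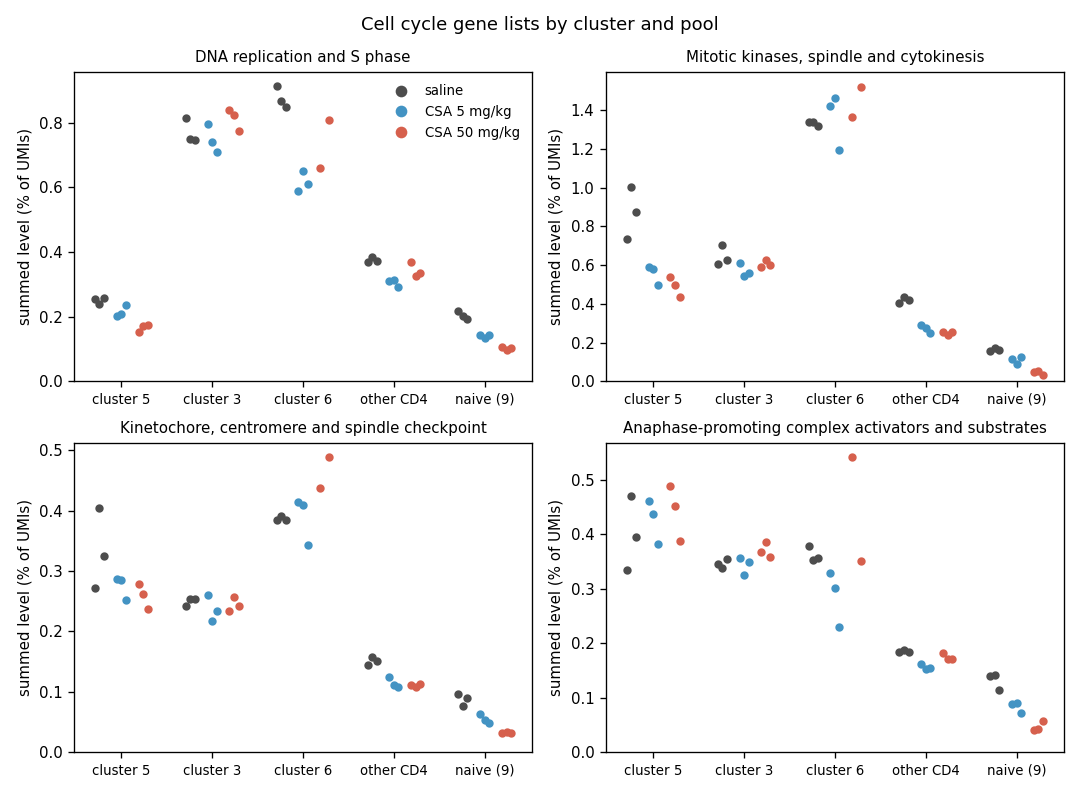
Share of UMIs (%) taken by 4 lists of cell cycle genes in cluster 5, cluster 3, cluster 6, the other CD4+ T cells and cluster 9 (naive cells), 1 point per pool and colored by treatment. Cluster 5 sits between 0.154 and 0.259% for the S phase list, below clusters 3 and 6, and at 0.335 to 0.489% for the anaphase-promoting complex list.

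Compared with all other CD4+ T cells of the same pool, the leading genes of cluster 5 were genes of G2 and mitosis. Each ratio below is log2 of CPM in cluster 5 plus 1 over CPM in the other cells plus 1, given as the median of 9 pools. The 5 highest were Cenpa at 2.49 (range 1.80 to 2.82), Ccnb2 at 2.46, Cdkn3, a phosphatase that acts on CDKs, at 2.41, Cdc20 at 2.40 and Knstrn, a protein of the kinetochore and spindle, at 2.27. They were followed by Ckap2, Aspm, Cenpf, 2610318N02Rik, Hmmr, Pimreg, Nek2, Cep55, Ccnb1 and Parpbp, from 2.23 down to 1.84, and all 15 were higher in cluster 5 in every pool. Mki67 was higher by 0.79 (range 0.43 to 1.19), and by 3.42 when clusters 3 and 6 were left out of the other cells. The lowest genes were the chemokines Ccl4 at -2.93, Ccl1 at -2.88 and Ccl3 at -1.998, the lymph node homing receptor Ccr7 at -1.95, and Nr4a1, an immediate early gene of TCR signalling, at -1.80. In all, 76 of 3487 genes (2.18%) had a median at least 2-fold higher and were higher in every pool, and 40 (1.15%) were that much lower.

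**Figure D2:**
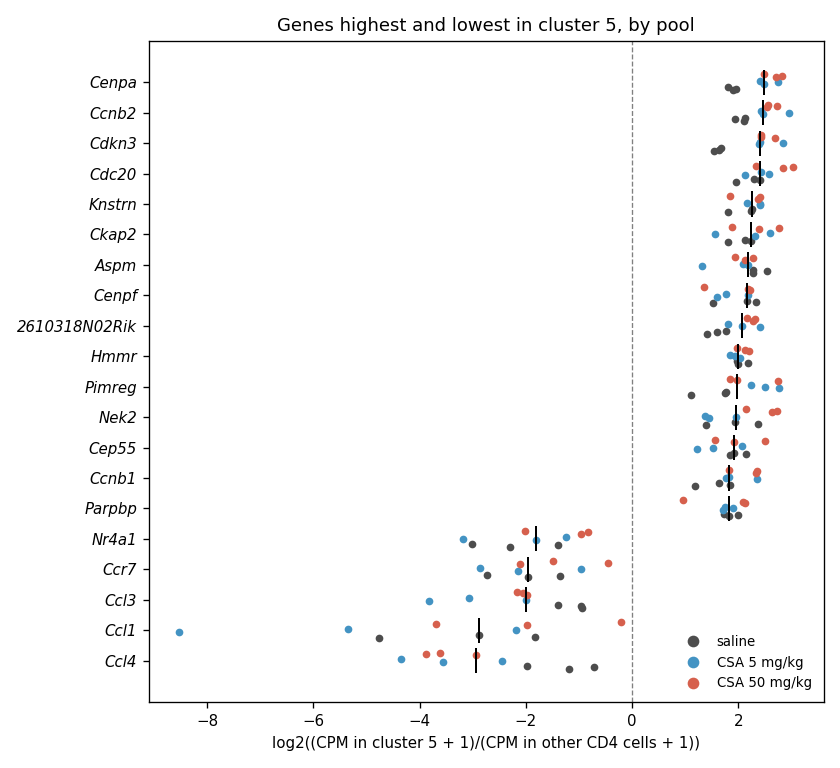
Log2 ratio of CPM plus 1 in cluster 5 to the other CD4+ T cells of the same pool for the 15 highest and the 5 lowest genes, 1 point per pool and colored by treatment, with a black bar at the median. Cenpa leads with a median of 2.49 and Ccl4 is lowest at -2.93.

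Because the leading genes act in the same phase of the cycle, their RefSeq promoters (assembly GRCm38.p6) were searched in the 150 bases before the start site for CHR letters (TTTGAA or TTTAAA on either strand) and for CCAAT on either strand. Matches of the motifs that share bases were each counted. A promoter was found for 14 of the 15 leading genes, all but Pimreg. A CHR match was present in 8 of the 14 (57.1%), against 14.9% of all 27025 promoters and 9.31% of the 4715 promoters of genes tested in the cluster. A CCAAT match was present in 12 of 14 (85.7%), against 25.3% and 29.4%, and both motifs in 8 of 14 (57.1%), against 3.74% and 3.05%. The shares are descriptions, since a match of letters is not a binding site. The promoters of 3 leading genes are shown 5' to 3' on the strand of the gene to let the arrangement be seen, with matches in capitals: Ccnb2 at chr9:70421555-70421704 (minus strand), which has 3 CCAAT matches and 0 CHR matches, Cdkn3 at chr14:46760391-46760540 (plus strand), with 3 CCAAT matches and 1 CHR match, and Cdc20 at chr4:118437344-118437493 (minus strand), with 2 CCAAT matches and 1 CHR match 18 bases before the start.
Ccnb2: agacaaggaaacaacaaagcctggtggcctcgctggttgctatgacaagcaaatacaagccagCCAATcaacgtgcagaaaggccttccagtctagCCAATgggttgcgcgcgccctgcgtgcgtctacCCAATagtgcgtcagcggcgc
Cdkn3: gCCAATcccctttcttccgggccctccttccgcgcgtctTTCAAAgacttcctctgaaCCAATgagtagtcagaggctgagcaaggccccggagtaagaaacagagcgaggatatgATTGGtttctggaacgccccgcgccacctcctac
Cdc20: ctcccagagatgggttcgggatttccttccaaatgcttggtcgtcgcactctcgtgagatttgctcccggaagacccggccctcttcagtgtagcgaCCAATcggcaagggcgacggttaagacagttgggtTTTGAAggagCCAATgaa

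By list, 29 of 40 mitotic kinase, spindle and cytokinesis genes were higher than in the other CD4+ T cells in every pool (median log2 ratio 1.07), as were 12 of 16 anaphase-promoting complex genes (1.25) and 16 of 27 kinetochore genes (0.77). Over the 5958 genes tested for a dose effect, 9.21% were higher and 11.8% lower in every pool. Of 39 S phase genes, 30 were lower in every pool (median -0.87), and this rested on clusters 3 and 6 among the other cells. With these left out, 10 of the 39 were higher and 2 lower in every pool (median 0.41), beside 711 and 703 of the 5958 genes, and the medians of the mitotic, anaphase-promoting complex and kinetochore lists were 2.90, 2.81 and 2.30. PCNA, the sliding clamp of replication, is an example: Pcna stood at 40.7 ± 4.76 CPM in cluster 5, 103 ± 12.4 in the other CD4+ T cells and 207 ± 35.3 in cluster 3. Of 26 genes that calcineurin and NFAT induce, 17 were lower than in the other cells in every pool, with a median of -1.39. The other dividing clusters were closer: 1 of the 26 was lower in every pool than in cluster 3 (median -0.41), beside 517 of the 5958 genes. Against cluster 6, 6 were lower in every pool (median -1.05), beside 1079 of the 5958 genes (median -0.22).

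The other dividing clusters held more S phase RNA. Against cluster 3, all 39 S phase genes were lower in every pool with a median of -2.05. Over the 5958 genes 637 were higher and 517 (8.68%) lower in every pool. The mitotic list had a median near 0 (0.09). Of 27 kinetochore genes 2 were higher and 10 lower than in cluster 3 in every pool (median -0.30). Of 16 anaphase-promoting complex genes 6 were higher and 3 lower (median 0.47). The lowest genes of cluster 5 against cluster 3 were E2f1 at -3.58 and Hist1h2ap at -3.20, then Esco2, Cdc6 and Pbk, the last at -3.05. E2f1 and Cdc6 act at the start of replication. The highest were 2810001G20Rik at 1.89, Emp1 at 1.78 and Nlrc3 at 1.57, with Knstrn at 1.51 and Nek2, a centrosome kinase, at 1.49. At least 2-fold and in every pool, 34 of 3441 genes (0.988%) were higher and 147 (4.27%) lower than in cluster 3.

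Against cluster 6, which has the highest Mki67, the widest gaps were in Brca2 at -4.84, E2f7 at -4.27 and E2f8 at -4.08, genes of DNA repair and of repression of E2F targets, followed by Stil and Ncapg2. Higher in cluster 5 were 2810001G20Rik at 2.82, Plac8 at 2.03, S100a13 at 2.02, S100a10 at 2.01 and Ifi27l2a at 1.93. The counts were 164 of 4348 genes higher (3.77%) and 745 lower (17.1%) by the same rule. By list, 2 of 40 mitotic genes were higher and 23 lower than in cluster 6 in every pool (median -1.06). For 27 kinetochore genes these counts were 2 and 9 (median -0.96). For 16 anaphase-promoting complex genes they were 5 and 4 (median 0.14), beside 619 and 1079 of the 5958 genes. Cells of cluster 6 in CSA-treated pools had medians of 2318 to 2982 UMIs and 3.90 to 10.0% mitochondrial UMIs. The 10.0% was that of the pool left out of the gaps, and the next highest was 6.31%. The part of these values in the gaps was not tested.

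Of the CD4+ T cells, cluster 5 made up 5.64, 6.15 and 7.41% in the saline pools, 5.14, 6.43 and 6.98% at 5 mg/kg and 14.6, 14.2 and 14.2% at 50 mg/kg. Within clusters 3, 5 and 6 together it made up 28.8, 28.6 and 31.0% in the saline pools, 22.4, 27.3 and 30.6% at 5 mg/kg and 42.2, 46.0 and 41.8% at 50 mg/kg. Clusters 3 and 6 moved as well: cluster 3 made up 3.26 to 4.94% of the CD4+ T cells in the saline pools and 15.9 to 18.6% at 50 mg/kg, and cluster 6 made up 10.4 to 11.6% and 0.693 to 1.32%. Both sets of shares of cluster 5 were highest in the 3 pools at 50 mg/kg, which did not overlap the other 6 pools, while the saline and 5 mg/kg pools overlapped. The genes that define the cluster themselves moved with dose, so these shares are a description without a test.

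Gene expression in the cluster was compared between doses on UMIs summed per pool with edgeR's quasi-likelihood test, counts scaled by the trimmed mean of M values (TMM) and p-values adjusted by Benjamini-Hochberg over the 5958 genes tested, with a threshold of 0.05. At 5 mg/kg against saline 1806 genes (30.3%) were called, 991 higher (16.6%) and 815 lower (13.7%). At 50 mg/kg against saline 3212 (53.9%) were called, 1587 higher (26.6%) and 1625 lower (27.3%). Between the doses 494 (8.29%) were called, 204 higher at 50 mg/kg (3.42%) and 290 lower (4.87%). Scaling by library size alone moved the median of all genes by -0.39 at 5 mg/kg and -0.41 at 50 mg/kg on the log2 scale and gave 418 of 2428 and 691 of 3375 called genes as higher, so directions below are relative to TMM. The pools of the dose and the saline pools did not overlap for 41.3% of all genes tested at 5 mg/kg and 59.5% at 50 mg/kg. Both doses were set against the same saline pools.

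A change that followed transcript length ran through the dose results of cluster 5. Over genes, the Spearman correlation of the log2 change with the length of the longest coding transcript was -0.67 at each dose in cluster 5 (5958 genes tested, 99.3% with a length), where the points share pools and captures. Of 5 bins of genes of equal size, the shortest, up to 1568 bases, had a median change of 0.70 at 50 mg/kg and the longest, over 4944 bases, of -0.82. In the other CD4+ T cells the correlation was -0.58 at 50 mg/kg, and in clusters 3 and 6 -0.37 and -0.016. At 5 mg/kg it was -0.65 in the other CD4+ T cells and -0.44 in cluster 3, and in cluster 6 it had the other sign, at 0.37. With a smooth length trend removed as an offset in the fit, an alternative chosen after the data were seen, 673 genes were called at 5 mg/kg (490 higher, 183 lower) and 1871 at 50 mg/kg (1051 higher, 820 lower). Values with this offset are given below where they end a call or move a fold by more than 1.5 times.

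**Figure D3:**
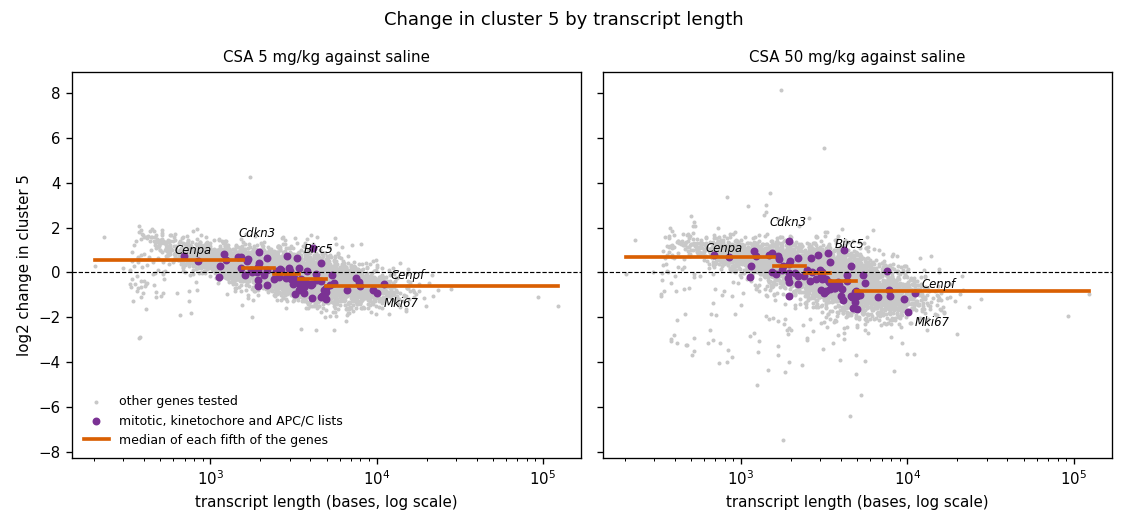
Log2 change in cluster 5 at 5 mg/kg and at 50 mg/kg against saline (vertical axes) by transcript length in bases (horizontal axes, log scale), 1 point per gene tested, with genes of the mitotic, kinetochore and anaphase-promoting complex lists in purple and the medians of 5 length bins in orange. The medians fall from 0.70 to -0.82 at 50 mg/kg, with Cenpa among short and Mki67 among long transcripts.

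Mki67 fell with dose while Cenpa and Ccnb2 rose. Mki67 stood at 1114, 1410.0 and 1308 TMM-scaled CPM in the saline pools, 748, 770.5 and 546 in the 5 mg/kg pools and 419.7, 335 and 369.9 in the 50 mg/kg pools. The 3 groups did not overlap and were ordered by dose. The log2 change was -0.93 ± 0.11 (SE, edgeR adjusted p = 6.14e-08) at 5 mg/kg and -1.78 ± 0.10 (SE, edgeR adjusted p = 1.26e-14) at 50 mg/kg, and with the length offset it was -0.26, which no longer passed, and -0.85, which did. The longest coding transcript of Mki67 has 10061 bases. In cluster 9, whose high Ccr7 (517 ± 163 CPM against 23.5 ± 16.4 in cluster 5) marks naive cells, Mki67 was at 83.2 ± 36.5 CPM in the saline pools and 27.0 ± 7.31 at 50 mg/kg.

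The share of cells with an Mki67 UMI gave the same order both before and after depth was made equal. After each cell was thinned to 2000 UMIs, which 874 of the 886 cells had, Mki67 was found in 69.0 to 78.5% of cells in the saline pools, 47.3 to 53.1% at 5 mg/kg and 35.7 to 36.4% at 50 mg/kg. Cluster 3, thinned alike, gave 61.6 to 64.9%, 50.2 to 54.5% and 51.1 to 55.1%, below cluster 5 in the saline pools and above it at 50 mg/kg. Before thinning the shares in cluster 5 were 81.2 to 86.9%, 75.3 to 80.0% and 63.9 to 74.8%, and naive cells thinned alike gave 3.32 to 17.5% over the 9 pools. Cenpa was found in 67.5 to 67.8%, 71.1 to 74.4% and 72.5 to 75.9% of thinned cells, against 4.51 to 29.3% of naive cells.

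Cenpa stood at 598, 624 and 576 TMM-scaled CPM in the saline pools, 1025, 1040.5 and 834 in the 5 mg/kg pools and 1062, 1043 and 983 in the 50 mg/kg pools. All 6 CSA-treated pools lay above the 3 saline pools, and the doses overlapped. Its log2 change was 0.78 ± 0.08 (SE, edgeR adjusted p = 6.65e-09) at 50 mg/kg. Ccnb2 stood at 370.1, 367 and 366 TMM-scaled CPM in the saline pools, 601, 661 and 536 in the 5 mg/kg pools and 703, 663 and 664 in the 50 mg/kg pools. Again no CSA-treated pool overlapped the saline pools, and the change was 0.88 ± 0.09 (SE, edgeR adjusted p = 1.8e-09). Cdkn3 had the steepest rise of the 3, from 76.1, 86.6 and 94.0 TMM-scaled CPM in the saline pools to 176, 188 and 139 at 5 mg/kg and 248, 221 and 233 at 50 mg/kg, with a log2 change of 1.43 ± 0.14 (SE, edgeR adjusted p = 1.3e-09). With the length offset these 3 rises were 0.33, 0.46 and 1.16, and with library size scaling 0.37, 0.47 and 1.01, and each still passed. In naive cells Cenpa was at 127 ± 21.4 CPM in the saline pools and at 25.6 ± 15.2 at 50 mg/kg.

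Birc5, which encodes survivin of the chromosomal passenger complex, rose by 0.87 at 50 mg/kg and by 0.66 at 5 mg/kg. Aspm, a spindle pole protein with a transcript of 9867 bases, changed by -1.78 at 50 mg/kg and by -0.85 with the length offset. Cenpf, a kinetochore protein whose transcript has 11130 bases, changed by -0.94 and was called, and its offset value of 0.04 was not. Cdc20 changed by 0.30, a call lost with the length offset (-0.02), with library size scaling (-0.11), by DESeq2, and without saline pool 1 or 50 mg/kg pool 1.

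**Figure D4:**
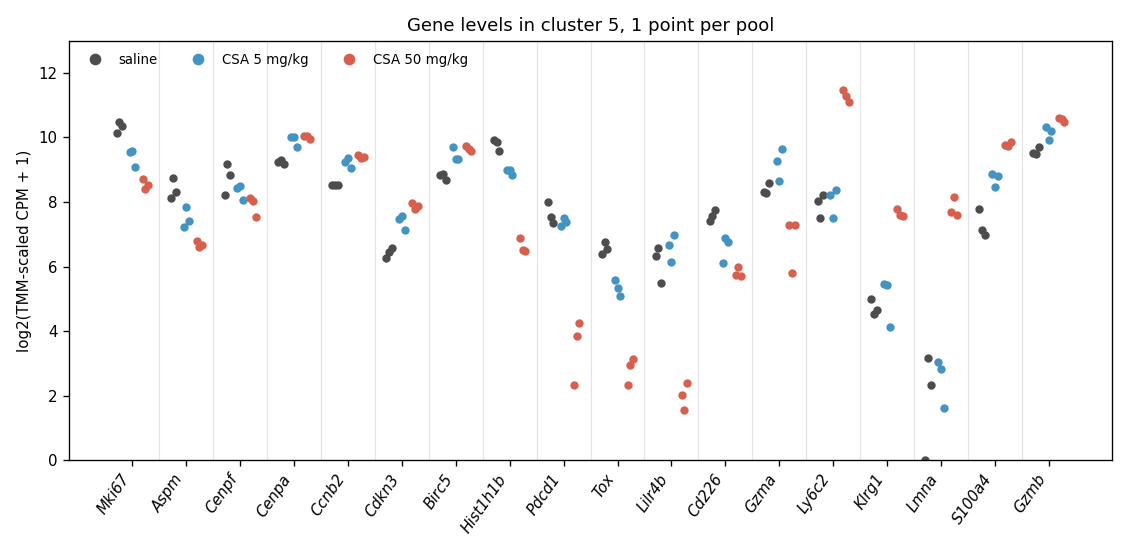
Log2 of TMM-scaled CPM plus 1 in cluster 5 for 18 genes named in the text, 1 point per pool by treatment. Mki67 and Hist1h1b step down with dose, Cenpa, Ccnb2 and Cdkn3 are higher in all CSA-treated pools, and Lmna, Ly6c2 and Klrg1 are high in the 50 mg/kg pools only.

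Counts over lists are to be read beside the 26.6% of all genes that rose and the 27.3% that fell at 50 mg/kg. Those at 5 mg/kg are to be read beside 16.6% and 13.7%. Of the 39 mitotic kinase, spindle and cytokinesis genes tested, 3 rose and 24 fell at 50 mg/kg (median -0.52, against 0.01 over all genes), and 4 rose and 16 fell with the length offset. Of 15 anaphase-promoting complex genes 8 rose and 1 fell (median 0.30), which became 3 and 2 with the offset and 5 and 5 with library size scaling, where the median turned to -0.11. Of 24 kinetochore genes 5 rose and 8 fell (4 and 3 with the offset), and of 28 S phase genes 3 rose and 9 fell (1 and 6), and the falls in these lists were near the share over all genes. Taking the mitotic, kinetochore and anaphase-promoting complex genes as 1 set of 78, the 39 genes up to the median length of 3182 bases held 13 that rose and 4 that fell at 50 mg/kg, and the 39 longer genes held 3 that rose and 29 that fell. With the offset these were 5 and 7, and 6 and 14.

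Replication-dependent histone genes made up 6 of the 10 largest falls among the named genes at 50 mg/kg. Their mRNAs are made in S phase and most lack a poly(A) tail. Of 34 histone genes tested, 9 rose and 24 fell at 50 mg/kg (median -2.88), and 8 rose and 16 fell at 5 mg/kg. Hist1h1b, a linker histone, stood at 958, 929 and 758 TMM-scaled CPM in the saline pools, 504, 504 and 460.0 in the 5 mg/kg pools and 116, 90.5 and 88.4 in the 50 mg/kg pools. The 3 groups were separate, and the change at 50 mg/kg was -3.16 ± 0.11 (SE, edgeR adjusted p = 4.26e-19). Hist1h1a changed by -4.05, Hist1h2bm by -3.52, Hist1h3e by -3.47, Hist1h2ab by -3.22 and Hist1h3c by -3.14. With the length offset Hist1h1b changed by -3.87 and the other 5 by -3.85 to -4.76, and 5 of the 34 histone genes rose and 24 fell. Reads of histone genes with near-identical copies can be split between them, so the value of a single histone gene is uncertain. These UMIs were not particular to dividing cells: in naive cells Hist1h1b was at 1579 ± 72.9 CPM in the saline pools and at 107 ± 27.4 at 50 mg/kg, and all histone genes took 1.26 ± 0.0551% and 0.407 ± 0.0287% of UMIs there, against 1.06 ± 0.0644% and 0.758 ± 0.0158% in cluster 5. The part of RNA from outside the cells in the change was not tested.

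The largest rises at 50 mg/kg were led by Lmna and Ly6c2. Lmna, the nuclear lamina gene, went from 0.00, 8.06 and 4.001 TMM-scaled CPM in the saline pools and 7.19, 6.07 and 2.04 at 5 mg/kg to 203, 285 and 192 at 50 mg/kg, a log2 change of 5.54 ± 0.34 (SE, edgeR adjusted p = 3.7e-14). It was near 0 in 6 pools and present in all 3 pools at 50 mg/kg. Ly6c2, the surface marker Ly6C of effector and memory cells, stood at 259, 179 and 298 TMM-scaled CPM in the saline pools, 295, 182 and 327 in the 5 mg/kg pools and 2849.9, 2478 and 2199.6 in the 50 mg/kg pools. Only the 50 mg/kg pools stood out, with a change of 3.36 ± 0.13 (SE, edgeR adjusted p = 4.4e-18) and of 0.16 at 5 mg/kg, which was not called. With the length offset the change at 50 mg/kg was 2.66, and reads shared with the near-identical Ly6c1 may be split between the genes. Klrg1, an inhibitory receptor of effector cells, stood at 31.1, 22.2 and 24.0 TMM-scaled CPM in the saline pools, 43.2, 42.5 and 16.4 in the 5 mg/kg pools and 220.5, 192 and 189 in the 50 mg/kg pools, with a change of 3.00 ± 0.21 (SE, edgeR adjusted p = 1.03e-12). Here too the 50 mg/kg pools lay apart from the other 6.

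Ctla2a, a cysteine protease inhibitor, rose by 2.58, Anxa1 by 2.39, the chemokine Ccl5 by 2.08, Arpp19, an inhibitor of the phosphatase PP2A in mitosis, by 1.96, and Dnajc15 by 1.88. The offset values were 1.41 for Ccl5 and 2.55 for Dnajc15. S100a4 stood at 218, 139 and 126 TMM-scaled CPM in the saline pools, 464, 355 and 446 in the 5 mg/kg pools and 873, 858 and 936 in the 50 mg/kg pools, a rise at both doses of 1.46 and 2.54 with no overlap of groups. S100a6 rose by 1.46 and 2.00, and with the length offset these rises were 0.81 and 1.88 for S100a4 and 0.78 and 1.29 for S100a6. Of 19 S100, annexin and lamina genes tested, 16 rose and 2 fell at 50 mg/kg (median 1.21, and 0.52 with the length offset), and 15 rose and 2 fell at 5 mg/kg. In the test against the other CD4+ T cells given below, 0 of 20 had a higher and 5 a lower change in cluster 5 at 50 mg/kg. All genes gave 0.211% and 0.622% there. At 5 mg/kg 3 were higher and 0 lower, beside 0.231% and 0.0802% of all genes. Between the doses 0 were higher and 11 lower, beside 0.13% and 0.572%.

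Coinhibitory receptors fell at 50 mg/kg. Of 12 coinhibitory and exhaustion genes tested 0 rose and 10 fell, with a median of -2.10, and the length offset gave 0 and 11. At 5 mg/kg 1 rose and 4 fell. Pdcd1, which encodes PD-1, stood at 256, 185 and 162 TMM-scaled CPM in the saline pools, 151, 182 and 166 in the 5 mg/kg pools and 4.05, 13.3 and 18.0 in the 50 mg/kg pools. The 5 mg/kg pools lay within or just below the saline range and the 50 mg/kg pools far below it, with a change of -3.98 ± 0.24 (SE, edgeR adjusted p = 3.98e-14). Tox, a transcription factor of exhausted T cells, stood at 83.0, 107 and 92.0 TMM-scaled CPM in the saline pools, 46.8, 39.4 and 32.7 in the 5 mg/kg pools and 4.05, 6.67 and 7.72 in the 50 mg/kg pools. It fell at each dose, by 1.31 and 3.89 on the log2 scale. Tigit was higher at 5 mg/kg by 0.64, a call lost with library size scaling and with the length offset (0.01), and changed by -1.87 at 50 mg/kg (-2.55 with the length offset). Lilr4b, an inhibitory receptor, and Nrgn, a calmodulin-binding protein, had the largest falls among called genes of at least 50 CPM whose pools did not overlap, with changes of -4.44 and -4.36.

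Of the genes induced through calcineurin and NFAT, 16 passed the filter on low counts. At 50 mg/kg 2 rose and 9 fell (median -0.66). At 5 mg/kg 1 rose and 3 fell, beside 16.6% and 13.7% of all genes. Nr4a1 was among those that rose: it stood at 6.92, 14.1 and 4.001 TMM-scaled CPM in the saline pools, 14.4, 6.07 and 24.5 in the 5 mg/kg pools and 53.6, 57.2 and 30.0 in the 50 mg/kg pools, a change of 2.41 ± 0.42 (SE, edgeR adjusted p = 2.12e-05) at 50 mg/kg. Its pools at 50 mg/kg lay above all others, where the other CD4+ T cells were at 97.2 ± 9.96 CPM and cluster 5 at 41.1 CPM on average. Ccl4, a chemokine of activated T cells, stood at 163, 131 and 70.0 TMM-scaled CPM in the saline pools, 25.2, 51.6 and 20.4 in the 5 mg/kg pools and 22.2, 17.2 and 53.2 in the 50 mg/kg pools, and fell at each dose, with changes of -1.89 ± 0.38 (SE, edgeR adjusted p = 0.00033) at 5 mg/kg and -1.86 at 50 mg/kg. The offset values were -2.59 and -2.58. Cd226, an activating receptor, changed by -0.94 and -1.81, and Il18r1, a receptor chain for IL-18, by -0.69 and -2.71. The change of Il18r1 at 5 mg/kg no longer passed with the length offset (-0.39).

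Of 28 effector and cytotoxic genes 10 rose and 10 fell at 50 mg/kg, near the shares of all genes, and with library size scaling 7 rose and 16 fell. Gzmb, which encodes granzyme B, stood at 729.7, 715 and 832 TMM-scaled CPM in the saline pools, 1277, 968 and 1178 in the 5 mg/kg pools and 1546, 1509 and 1438 in the 50 mg/kg pools, and the 3 groups were separate. Its changes were 0.58 ± 0.09 (SE, edgeR adjusted p = 1.15e-05) and 0.97 ± 0.08 (SE, edgeR adjusted p = 6.77e-11), the first of which was lost with library size scaling and with the length offset. Gzma stood at 315, 310.2 and 384 TMM-scaled CPM in the saline pools, 619, 400.4 and 797 in the 5 mg/kg pools and 155, 54.3 and 156 in the 50 mg/kg pools. It was highest at 5 mg/kg, where the call (0.87) was lost without pool 3 (0.59), with the length offset (0.28), with library size scaling, by DESeq2 and with cells of their own hashtag alone, and lowest at 50 mg/kg, with a change of -1.47 ± 0.23 (SE, edgeR adjusted p = 3.7e-06), or -2.12 with the length offset. Naive cells held 394 ± 109 CPM of Gzma in the saline pools and 8.63 ± 10.4 at 50 mg/kg, and of Gzmb 554 ± 66.5 and 67.3 ± 47.1 CPM, so in the saline pools the Gzma level of cluster 5 was no higher than in cells that should lack it. Tbx21, which encodes T-bet, changed by -0.09 and -0.24 and was not called.

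Of 5 follicular helper genes tested 0 rose and 4 fell (median -3.05). Izumo1r, the folate receptor 4, stood at 27.7, 42.3 and 46.0 TMM-scaled CPM in the saline pools, 21.6, 30.3 and 34.8 at 5 mg/kg and 8.09, 0.953 and 5.15 at 50 mg/kg, and the highest dose lay below all other pools. Of 15 activation and costimulation genes 2 rose and 7 fell. Slamf1, a costimulatory receptor, stood at 124.5, 157 and 128 TMM-scaled CPM in the saline pools, 97.1, 88.0 and 98.1 at 5 mg/kg and 28.3, 18.1 and 20.6 at 50 mg/kg, which gave 3 separate groups and a change of -2.63 at 50 mg/kg. Icos, the inducible costimulator, changed by -1.35 at 50 mg/kg, and Cd44, a receptor of activated cells, by -0.14, which was not called. Of 27 memory, homing and quiescence genes 10 rose and 9 fell, and with library size scaling 7 rose and 13 fell. The integrin chains Itgb1 and Itga4, which form VLA-4, changed by -1.83 and -1.98 at 50 mg/kg and by -0.60 and -1.29 at 5 mg/kg, and with the length offset Itga4 changed by -1.07 at 50 mg/kg.

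Among the genes of TCR signalling 7 of 22 rose and 11 fell at 50 mg/kg. Lat, the adaptor that links the receptor to its downstream enzymes, stood at 504.9, 455 and 466 TMM-scaled CPM in the saline pools, 694, 619 and 715.5 at 5 mg/kg and 1055, 1057 and 953 at 50 mg/kg. The groups did not overlap, and its changes were 0.52, which no longer passed with library size scaling or with the length offset, and 1.11, which was 0.56 with the offset. Themis, a regulator of TCR signal strength, changed by -1.23 and -1.33. Of 15 glycolysis genes 8 rose and 3 fell at 50 mg/kg (median 0.29), and with library size scaling 3 rose and 5 fell and the median turned to -0.12. Gapdh rose by 1.29, and Hif1a, the transcription factor that responds to low oxygen, changed by -1.58. Of 15 genes of G1 cyclins, CDKs and CDK inhibitors 5 rose and 8 fell, where Ccnd2, a D-type cyclin, rose by 1.05 (1.73 with the length offset) and Rbl2, a pocket protein of quiescent cells, changed by -1.89. Of 21 interferon-stimulated genes 3 rose and 6 fell, with Ifi27l2a at 1.31, or 0.68 with the length offset.

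At 5 mg/kg the largest rises were led by Atp5k. Atp5k, a subunit of ATP synthase of 371 bases, stood at 58.8, 52.4 and 56.0 TMM-scaled CPM in the saline pools, 234, 246 and 225 in the 5 mg/kg pools and 165, 152 and 171 in the 50 mg/kg pools, a change of 2.08 ± 0.17 (SE, edgeR adjusted p = 2.93e-11) at 5 mg/kg. Dpm3, Gm10076, Rps28 and AA467197 followed, with changes of 1.93, 1.88, 1.87 and 1.85. The offset values of Dpm3, Rps28 and AA467197 were 1.26, 1.28 and 1.17. Of 74 oxidative phosphorylation genes 66 rose and 0 fell at 5 mg/kg and 69 rose and 0 fell at 50 mg/kg, and with the length offset 35 and 48 rose and 0 fell. Of 80 cytosolic ribosomal protein genes 79 rose at each dose, and with the offset 56 and 64. The median change of the oxidative list at 50 mg/kg was 1.00, and 0.39 with the offset. The falls at 5 mg/kg were led by Ccl4, Hist1h1c at -1.44, the nuclear pore gene Pom121 at -1.36, Gosr1 of Golgi transport at -1.35 and Arhgap26 at -1.34 (-0.75 with the length offset).

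To find what changed otherwise in cluster 5 than in the other CD4+ T cells of the same pools, the interaction of cell class and dose was tested with the pool as a block in edgeR. The change differed for 31 of 9969 genes (0.311%) at 5 mg/kg, 23 higher (0.231%) and 8 lower (0.0802%) in cluster 5, and for 83 (0.833%) at 50 mg/kg, 21 higher (0.211%) and 62 lower (0.622%). The balance of directions at 50 mg/kg depended on the fit and on the comparison cells. It was 25 higher and 26 lower by DESeq2, 48 and 50 with no filter on low counts, and 48 and 44 without saline pool 1. It turned to 175 and 111 with clusters 3 and 6 left out of the other cells, 640 and 385 against cluster 3 alone, and 387 and 230 against cluster 6 alone. The other CD4+ T cells also sat in different clusters in each group, with the shares of clusters 3 and 6 given above, and the part of this in the differences was not tested apart from these alternatives. Dose effects that were large in cluster 5 were not always among them: the difference in change was -0.22 for Ly6c2 and -0.05 for Gzmb at 50 mg/kg, neither of which was called. The counts depended on the pools, and without saline pool 2 or saline pool 3 the number at 50 mg/kg was 35 or 39.

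Cenpa and Cdkn3 rose more in cluster 5. On the scale of this fit Cenpa was at 580.5, 619.8 and 559.9 in the saline pools and 1074, 1046 and 990.0 at 50 mg/kg in cluster 5, and at 145, 150.2 and 154 in the saline pools and 155, 141 and 166 at 50 mg/kg in the other CD4+ T cells, in TMM-scaled CPM. The other cells overlapped between groups and cluster 5 did not, with a difference in log2 change of 0.78 ± 0.10 (SE, edgeR adjusted p = 1.46e-07). Cdkn3 differed by 0.89 ± 0.18 (SE, edgeR adjusted p = 0.004). With clusters 3 and 6 left out of the other cells these differences were 1.75 and 2.50, and against cluster 3 alone 0.76 and 1.13, all of them called. Against cluster 6 alone, 0.36 and 0.33 did not pass. Each of these differences also holds the change of the comparison cells, so a larger one is not a larger rise in cluster 5. The cells left without clusters 3 and 6 include the naive cells, whose Cenpa was lower at 50 mg/kg, as given above. Mki67 fell by more in cluster 5, with a difference of -0.55 that was called with the pool block, was lost without it and without clusters 3 and 6, and held against cluster 3 or cluster 6 alone.

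Ccl4 had the largest difference. It was at 158, 130.0 and 68.0 in the saline pools and 22.5, 17.2 and 53.6 at 50 mg/kg in cluster 5 and at 338, 203 and 259 in the saline pools and 171, 256 and 636 at 50 mg/kg in the other CD4+ T cells, a difference of -2.33 ± 0.24 (SE, edgeR adjusted p = 4.1e-10). The pools of the other cells overlapped and were widely spread, and the call was lost without the pool block and against cluster 6 alone, where the value was 1.23. Gzma fell by less in cluster 5, with a difference of 0.81 ± 0.15 (SE, edgeR adjusted p = 0.000859) that was also lost without the block and against cluster 3 alone. Hist1h1a, Hist1h2ae and Hist1h1b fell by more in cluster 5 than in all other cells, with differences of -1.83, -1.60 and -1.50. When clusters 3 and 6 were left out, the direction turned for Hist1h2ae (1.01) and Hist1h1b (0.51), and the call was lost for Hist1h1a (-0.10). Gzmk and Dennd2d had the other positive differences among the named genes, and Gzmc the other negative one. Gzmk, which encodes granzyme K, was at 13.4, 60.0 and 89.4 in the saline pools and 73.6, 54.5 and 49.3 at 50 mg/kg in cluster 5, and at 49.6, 68.8 and 63.9 and then 36.1, 30.2 and 24.6 in the other CD4+ T cells. The pools of cluster 5 overlapped and those of the other cells did not, with a difference of 1.02 ± 0.24 (SE, edgeR adjusted p = 0.0173) that was lost without the pool block, against cluster 3 or cluster 6 alone, and without saline pool 1, saline pool 2 or 50 mg/kg pool 1.

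**Figure D5:**
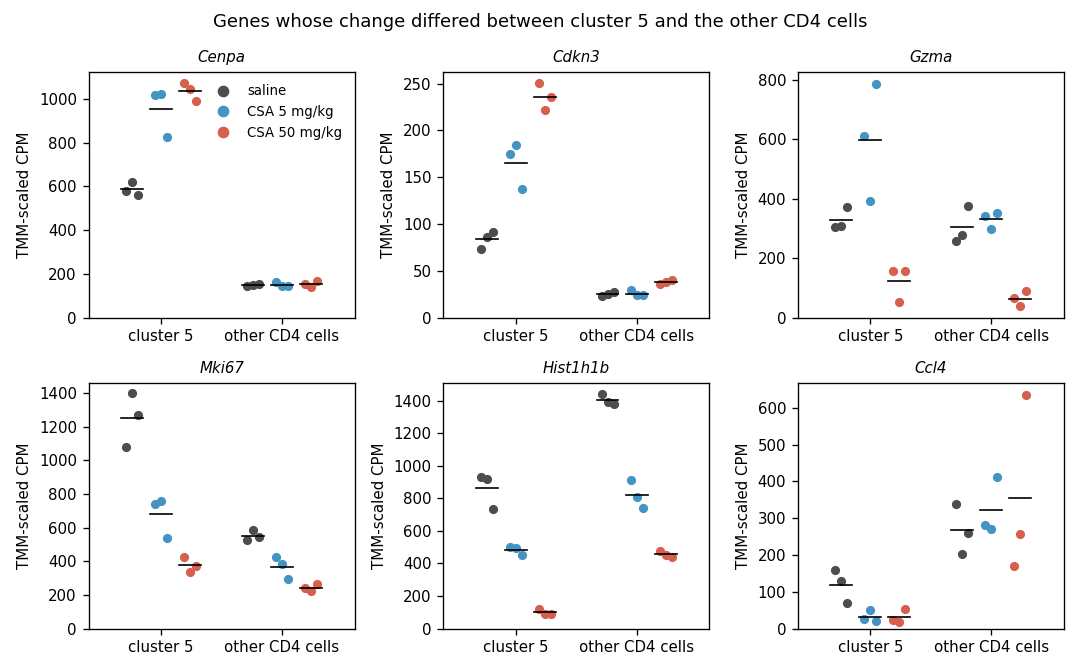
TMM-scaled CPM (linear axis) of 6 genes in cluster 5 and in the other CD4+ T cells, 1 point per pool by treatment, with bars at group means. Cenpa and Cdkn3 rise with CSA in cluster 5. In the other cells Cenpa stays near 149.9, Cdkn3 lies from 25.3 to 38.3, and the pools overlap for Ccl4.

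The TCR library gave a clonotype for 776 of the 886 cells. They made up 723 clonotypes, of which 2 occurred in more than 1 pool, the largest clone of a pool had 6 cells, and 90 cells shared a clonotype with another cell of the cluster in their pool. A chain was lacking in 147 of the clonotypes. The share of cells with a clonotype was 77.6 to 85.9% in the saline pools, 82.7 to 86.7% at 5 mg/kg and 88.1 to 95.1% at 50 mg/kg. The part of these differences in the values below was not tested. Simpson's index, the chance that a pair of cells drawn from a pool has the same clonotype, was 0.0175, 0.00180 and 0.00147 in the saline pools, 0.00675, 0.00151 and 0.000452 at 5 mg/kg and 0.00131, 0.00131 and 0.000228 at 50 mg/kg. The first saline pool and the first 5 mg/kg pool were the highest and the rest overlapped. An exact two-sided permutation test of a trend with dose gave p = 0.0607, where 1680 assignments allow 0.00119 at the smallest. With a pool left out the exact p fell on either side of 0.05. It was 0.0482 without saline pool 3 and 0.0464 without 5 mg/kg pool 1 or without 5 mg/kg pool 3. At the upper end of its range, which is given in the closing sections, it was above 0.0607. The share of cells in repeated clonotypes, tested in the same way, gave an exact p = 0.388.

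Clonotypes of cluster 5 were shared with the other CD4+ clusters of the same pool. A share of 31.9 ± 18.0% of its cells in the saline pools (mean ± SD, n = 3), 21.6 ± 10.4% at 5 mg/kg and 29.3 ± 4.93% at 50 mg/kg had a clonotype that also occurred in another cluster. For cluster 3 these shares were 10.7 ± 6.52%, 6.69 ± 5.72% and 15.5 ± 5.03%, and for cluster 6 they were 17.8 ± 9.90%, 2.56 ± 4.44% and 1.24 ± 0.434%. Shares with a cluster depend on how many of its cells had a clonotype. Cluster 3 had 35 to 61 such cells per saline pool and 155 to 179 at 50 mg/kg. Cluster 6 had 105 to 149 and 5 to 10, so shares with either cluster were not compared between groups. Of these cells of cluster 6, 11.5 ± 4.43% had a clonotype also in cluster 5 in the saline pools. At 50 mg/kg the value was 17.4 ± 6.51%. For cluster 3 these values were 9.06 ± 2.21% and 13.3 ± 4.58%. They depend in turn on the cells of cluster 5 with a clonotype. In every pool 0 cells of cluster 5 shared a clonotype with the naive cells, of which 13 to 34 per pool had one.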

How the data were processed

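Single-cell 5' gene expression and TCR libraries (v2 chemistry, Chromium) were made from splenic T cells of 9 pools, 3 per group. The submitters' processing notes name Cell Ranger and Seurat 3.0.0 with the mm10 genome; aligner settings are not given in the sources used here. The authors deposited raw UMI counts per gene and cell, not normalized, for 21204 cells and 18029 genes. The authors' table of the 10371 CD4+ cells gives the pool, capture, cluster, TEa mark, clonotype and antibody counts of each cell. Its deposited mitochondrial fraction is that of all UMIs of a cell, and its deposited module scores and pseudotime have gene lists that are not given in the sources used here. The summed counts of all 10371 cells equalled the UMI number in that table. The table of CD8+ cells was not used here.

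UMI counts of member cells were summed per pool, since pools of 2 mice and not cells are replicates. Genes were kept by filterByExpr and tested with edgeR 4.0.16 (quasi-likelihood, TMM scaling, R 4.3.3) over all 9 pools, with Benjamini-Hochberg adjustment over all genes tested and a threshold of 0.05. The common biological coefficient of variation was 0.0642. The difference between the change in cluster 5 and that in the other CD4+ T cells was tested as an interaction with the pool as a block, since both sums come from the same pool. A pool entered a fit with at least 10 cells. DESeq2 1.42.0 was an alternative. Transcript lengths are those of the longest coding transcript in GENCODE vM21, and the length offset was a loess trend (span 0.5) on log2 length. The fits were tested on simulated data made from these pools. The dose fit at 50 mg/kg recovered 78.6% of 192 genes changed 2-fold among 5647 tested, and the interaction 67.5% of 200 among 9809. Changed genes were drawn from those above a minimum level, and the simulated counts held no length trend. Recovery at lower levels or under such a trend was not tested. Ratios between clusters used CPM plus 1 and were not tested. Clonotypes were amino acid TCR sequences, and trends were tested by exact permutation in Python 3.11.15.

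The members and gene lists were chosen with earlier results of these data known. Named genes were the 10 largest rises and falls at 50 mg/kg and 5 at 5 mg/kg among called genes of at least 50 CPM whose pools did not overlap, the 5 largest interaction terms each way at 50 mg/kg, the leading genes of cluster 5 by ratio (15 higher and 5 lower than in the other CD4+ T cells, 5 each way against clusters 3 and 6), up to 4 genes of each list with the lowest p, and the genes the study names for its cycling clusters. TCR and immunoglobulin segments were not named. Alternatives were library size scaling, keeping genes of low count, other sets of cells and comparison cells, a block by pool number, the length offset, and leaving out each pool. UMI totals per pool set the precision, and intervals between pools cover the spread between pools within a capture.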

Additional observations from a re-analysis of the deposited data

Results flagged for a closer look

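The change with CSA in cluster 5 differed from that in the other CD4+ T cells of the same pools for 31 genes at 5 mg/kg and for 83 genes at 50 mg/kg (edgeR interaction test, adjusted threshold 0.05), against 724 and 976 genes at an unadjusted p under that threshold. Of the genes named at 50 mg/kg, the log2 change was greater in cluster 5 by 1.02 for Gzmk, 0.90 for Dennd2d, 0.89 for Cdkn3, 0.81 for Gzma and 0.78 for Cenpa. It was lower by the interaction term of -2.33 for Ccl4, -1.83 for Hist1h1a, -1.60 for Hist1h2ae, -1.50 for Hist1h1b and -1.49 for Gzmc. The term for Dennd2d (edgeR adjusted p = 0.0137) no longer passed against cluster 3 alone (0.06), against cluster 6 alone (-0.02), or without saline pool 2, saline pool 3 or 50 mg/kg pool 3. Gzmc, a granzyme gene (edgeR adjusted p = 0.013), was at 20.1, 90.0 and 33.1 TMM-scaled CPM in the saline pools and 45.0, 55.4 and 18.2 at 50 mg/kg in cluster 5, which overlapped, and at 8.99, 11.2 and 25.0 and then 50.8, 33.4 and 18.2 in the other cells. Its term no longer passed without the pool block, against cluster 3 alone (-0.48), against cluster 6 alone (0.19), without saline pool 2 (-0.32) or without 50 mg/kg pool 1 (-1.19).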

How the results depend on the processing

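Each treatment group was 1 capture of 3 pools, so capture and treatment cannot be told apart, and p-values measure the spread between pools. The saline and 5 mg/kg pools held fewer UMIs of the cluster than the 50 mg/kg pools, so genes at low counts are less precise there. The causes of the differences below were not tested. In the dose comparisons, DESeq2 called 1182 genes at 5 mg/kg and 273 between the doses (edgeR 1806 and 494), and the length offset gave 673 and 1871 genes at 5 and 50 mg/kg (1806 and 3212 without it). Leaving out a pool gave 1403 to 1794, 2782 to 3432 and 313 to 546 genes at 5 mg/kg, at 50 mg/kg and between the doses, with the fewest between the doses without 5 mg/kg pool 3. Pool numbers do not pair the pools across groups (correlations of same-numbered pools from -0.0674 to 0.0282), and a replicate block by number gave 1798, 3178 and 513 genes. For the interaction at 5 mg/kg (31 genes) the count was 52 with no filter, 88 without clusters 3 and 6, 419 against cluster 3 alone, 1688 against cluster 6 alone, 9 without the pool block and 16 to 44 without a pool (16 without saline pool 3). At 50 mg/kg (83 genes) it was 51 by DESeq2, 286, 1025 and 617 with these comparison cells in the same order, 34 without the block and 35 to 92 without a pool. Between the doses (70 genes) it was 200, 31 and 11 with the same comparison cells, 146 with the length offset, 52 without the block and 38 to 79 without a pool (38 without 5 mg/kg pool 3).

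Genes at least 2-fold higher in cluster 5 than in the other cells numbered 140 without clusters 3 and 6 (76 with them). The share of cluster 5 at 50 mg/kg was 14.6% among cells of at least 2000 UMIs (14.3% among all), and without a pool the mean shares were 5.90 to 6.78%, 5.79 to 6.70% and 14.2 to 14.4% from saline to 50 mg/kg. The exact p of the clonality trend was 0.0464 to 0.161 without a pool, with 0.0482 without saline pool 3.

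Directions turned for some log2 changes. With library size scaling Cdc20 was at -0.35 and -0.11 at 5 and 50 mg/kg and Pclaf at -0.13 at 50 mg/kg. With the length offset Ccl5 was at -0.60, Hist1h2ae at -0.66, Cenpf at 0.17, Cks1b at -0.15 and Ncl at 0.43 at 5 mg/kg, and Cdc20 at -0.017, Cenpf at 0.043, Cks1b at -0.012, Maf at 0.23, Ncl at 0.28 and Cd44 at 0.46 at 50 mg/kg. The interaction against cluster 6 alone was 2.66 for Klrg1 at 5 mg/kg and, at 50 mg/kg, 1.23 for Ccl4, -0.019 for Dennd2d, 0.19 for Gzmc and 0.90 for Pclaf. Without clusters 3 and 6 it was 0.51 for Hist1h1b, 1.01 for Hist1h2ae, 0.31 for Gzmb and 2.05 for Pclaf at 50 mg/kg. Of the other values of single genes under an alternative, 6540 kept their direction and call, 161 no longer passed, 83 newly passed and 2 values without a test moved.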

Other observations

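Ifitm1, an interferon-induced transmembrane gene, had opposite changes at the doses. In cluster 5 it stood at 470.3, 302 and 264 TMM-scaled CPM in the saline pools, 921, 682 and 1517 at 5 mg/kg and 52.6, 3.81 and 18.0 at 50 mg/kg, and the 3 groups did not overlap. Its log2 changes were 1.69 and -3.77. Other gene groups gave smaller counts at 50 mg/kg. Of 19 apoptosis regulators 6 rose and 5 fell (3 and 7 with library size scaling), with Cycs, the cytochrome c gene, at 1.22. Of 19 Myc target, nucleolus and nutrient uptake genes 5 rose and 2 fell, beside 26.6% and 27.3% of all genes, with Phgdh of serine synthesis at 0.89. With library size scaling 1 rose and 6 fell, and the median turned from 0.12 to -0.29.

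Few marker genes of other cells passed the filter on low counts. Of 2 CD8 markers Cd8b1 was tested and changed by -2.06 at 50 mg/kg, where the list took 0.00178 to 0.00279% of UMIs against 0.0115 to 0.0139% in the saline pools. Of 3 regulatory T cell markers 1 was tested and changed by -3.14. Of 10 B cell markers 1 was tested and rose, and of 10 myeloid markers 3 were tested, of which 1 rose. Of 7 erythroid and 6 NK or gamma-delta T cell markers 0 were tested. Of 8 dissociation response genes 6 rose and 2 fell at 50 mg/kg, and of 13 genes of the mitochondrial genome 7 rose and 0 fell (median 0.23), which turned to 0 and 8 with the length offset (-0.35) and to 1 and 7 with library size scaling (-0.18). The dissociation counts were 3 and 2 with the offset and 3 and 3 with library size scaling.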
